A study of Mus musculus with 8 samples.

Results

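The genes described here encode the nuclear pore and the carriers that move proteins and RNA through it. They were taken by name from the transcript tables: nucleoporins (*Nup* and *Nupl* genes, *Tpr*, *Ndc1* and *Pom121*-named genes), importins and transportins (*Kpna*, *Kpnb*, *Ipo*, *Tnpo*), exportins (*Xpo*, with 1 exportin left out by the rule), mRNA export receptors (*Nxf*, *Nxt*) and Ran-binding proteins (*Ranb*). This gave 87 transcripts of 57 genes, out of 19077 distinct transcripts under 12200 gene names. The naming rule uses no measured value.

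RNA was sequenced from testis cells enriched for round spermatids, the haploid cells that follow meiosis, of 4 *Tdrd6*-/- and 4 *Tdrd6*+/- mice at postnatal day 26, all on a C57BL/6 background. TDRD6 is a Tudor domain protein of the chromatoid body, a perinuclear RNA granule of spermatids that lies against nuclear pores. Both genotypes carry the targeted allele, in which human CD4 is joined to the start of *Tdrd6*, and CD4 beads selected the cells in both. The controls are therefore heterozygous and no wild type animal was included. The deposited tables give 1 FPKM value (fragments scaled to transcript length and to the library's fragments) per genotype, which combines its 4 libraries. The tables give no value per library and no read counts, so the levels carry no replicate error and no depth, and no difference below was tested. Ratios are log2 of *Tdrd6*-/- over *Tdrd6*+/- after adding 0.1 FPKM to each value, and a fold of 1.5 (0.58 on the log2 scale) serves only as a rule of size.

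The targeted gene fitted its labels. The 3 listed *Tdrd6* transcripts had 1.29, 0.174 and 0 FPKM in *Tdrd6*-/- cells, against 40.6, 16.0 and 0.540 FPKM in *Tdrd6*+/- cells. Round spermatid markers were abundant, with a summed level of 1235 FPKM in *Tdrd6*-/- and 1757 FPKM in *Tdrd6*+/- cells over 7 of 8 listed genes, and all 7 were lower in *Tdrd6*-/-. Late spermatid markers such as *Prm1* and *Tnp1* were also plentiful and summed to 5869 FPKM in *Tdrd6*-/-, against 21248 FPKM in *Tdrd6*+/- cells, with all 7 genes lower in *Tdrd6*-/-. Of the 7 spermatocyte markers, 5 were higher in *Tdrd6*-/- (summed levels 4573 FPKM in *Tdrd6*-/- and 5962 FPKM in *Tdrd6*+/-, most of it *Ldhc*). The cells were not pure spermatids, as the paper's flow cytometry also found spermatocytes among them. Enrichment cannot be read from these levels, as no unselected testis cells were sequenced. Spermatogonial markers (4 of 5 listed) summed to 4.30 FPKM in *Tdrd6*-/- and 3.93 FPKM in *Tdrd6*+/-, and Sertoli markers (3 of 6) to 6.68 FPKM in *Tdrd6*-/- and 5.95 FPKM in *Tdrd6*+/-. Leydig markers (5 of 5) summed to 25.7 FPKM in *Tdrd6*-/- and 26.8 FPKM in *Tdrd6*+/-, and *Lyz2*, the only blood marker found of 5, had 0.770 FPKM in *Tdrd6*-/- and 0.497 FPKM in *Tdrd6*+/-. The paper reports, by flow cytometry, similar shares of round spermatids and of spermatocytes in such preparations of both genotypes. The part of these marker differences in the ratios below was not tested. From RNA levels of such a mixed population, fewer cells of a type cannot be told apart from less RNA per cell.

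The nuclear pore is a ring of repeated subcomplexes set in the nuclear envelope. The Y complex and inner ring form its scaffold, membrane proteins anchor it, phenylalanine-glycine rich proteins such as NUP62 fill the channel, and filaments extend into the cytoplasm while a basket hangs in the nucleus. Importins bind cargo in the cytoplasm and release it where the small GTPase Ran is bound to GTP, exportins need that same Ran-GTP to bind cargo, and most mRNA leaves by another route, with the NXF1-NXT1 receptor. In spermatids, importins bring in the transition proteins and other factors that remodel chromatin.

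Most transport transcripts were somewhat higher in *Tdrd6*-/- cells. Of the 87, 61 were higher by any amount (70.1%), against 51.2% of all distinct transcripts, and 26 were lower. The median log2 ratio was 0.28, with quartiles of -0.07 and 0.47, against 0.01 over all transcripts. Of the members, 37 were at least 25% higher (42.5%, against 24.3% of all transcripts) and 7 at least 20% lower (8.05%, against 22.9%). At a fold of 1.5, 10 members were higher (11.5%), which is near the 10.4% of all transcripts, and 1 was lower (1.15%, against 10.4%). At a fold of 2, 1 member was higher and 1 lower (1.15% each, against 3.69% and 3.83% of all transcripts). The set thus stood apart from the whole table by a modest shift of many members and by few lower ones, and not by large ratios. Values were not low: the members' median level was 11.6 FPKM in *Tdrd6*-/- and 8.82 FPKM in *Tdrd6*+/- cells, against 3.85 FPKM in *Tdrd6*-/- and 3.70 FPKM in *Tdrd6*+/- over all transcripts, none was at 0, and 5 were under 1 FPKM in both genotypes.

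**Figure D1:**
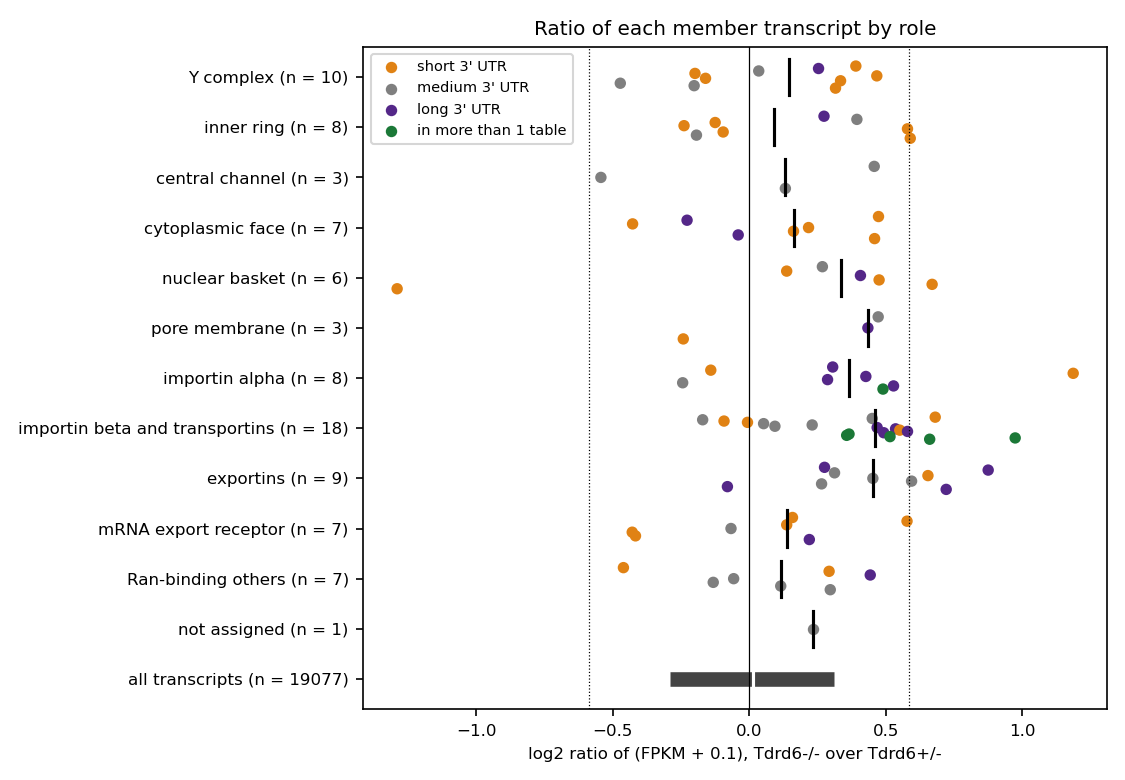
Log2 ratio of FPKM + 0.1, *Tdrd6*-/- over *Tdrd6*+/- (x axis), of the 87 member transcripts by role (rows); colours give the 3' UTR class, the short black line the median of the role, the dotted lines a fold of 1.5 either way, and the bar at the bottom the quartiles of all transcripts with their median in white. The role medians run between 0.09 for the inner ring and 0.46 for importin beta and transportins, and a *Tpr* fragment at -1.29 lies far to the left.

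Counted by transcript or by gene, the carriers had a higher median ratio than the pore, and only the total FPKM of each group gave the other order. Importins, transportins and exportins (35 transcripts of 22 genes) had a median log2 ratio of 0.45. Of them 29 were higher (82.9%, against 51.2% of all transcripts) and 6 lower by any amount. At a fold of 1.5, 8 were higher (22.9%, against 10.4% of all transcripts) and none was lower (against 10.4%). Some of the 8 were minor forms at low levels. Adding 1 FPKM instead gave 0.38 for the minor *Tnpo2* form and 0.26 for the minor *Xpo7* form, both under the fold, whereas *Tnpo3* stayed past it at 0.60. Nucleoporins (37 transcripts of 25 genes) had a median of 0.22. Of them 23 were higher (62.2%) and 14 lower by any amount. At a fold of 1.5, 2 were higher (5.41%, below the 10.4% of all transcripts) and 1 was lower (2.70%, against 10.4%). With the transcripts of a gene summed, the medians were 0.41 for the carriers and 0.25 for the nucleoporins. In these sums 1 of 22 carrier genes and 1 of 25 nucleoporin genes were at least 1.5-fold higher, against 5.22% of all genes. With 1 transcript per gene the medians were 0.40 for importins and exportins and 0.27 for nucleoporins. The summed level of the carriers was 944 FPKM in *Tdrd6*-/- and 889 FPKM in *Tdrd6*+/- (1.06-fold), and that of the nucleoporins 700 FPKM in *Tdrd6*-/- and 634 FPKM in *Tdrd6*+/- (1.10-fold). Whether the 2 differ was not tested. Among the carriers, importin alpha summed to 0.919-fold and importin beta with transportins to 1.16-fold. Summed over genes, exportins stood at 85.5 FPKM in *Tdrd6*-/- and 63.4 FPKM in *Tdrd6*+/- (1.35-fold), whereas all 57 genes summed to 2445 FPKM in *Tdrd6*-/- and 2392 FPKM in *Tdrd6*+/- (1.02-fold), with *Nxt1*, *Kpna2* and *Kpna6*, among the 5 most abundant member genes in *Tdrd6*-/-, lower there. The sum of every gene in the tables was 494391 FPKM in *Tdrd6*-/- and 595632 FPKM in *Tdrd6*+/- (0.830-fold), and without the late spermatid markers it was 488522 FPKM in *Tdrd6*-/- and 574384 FPKM in *Tdrd6*+/-.

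**Figure D2:**
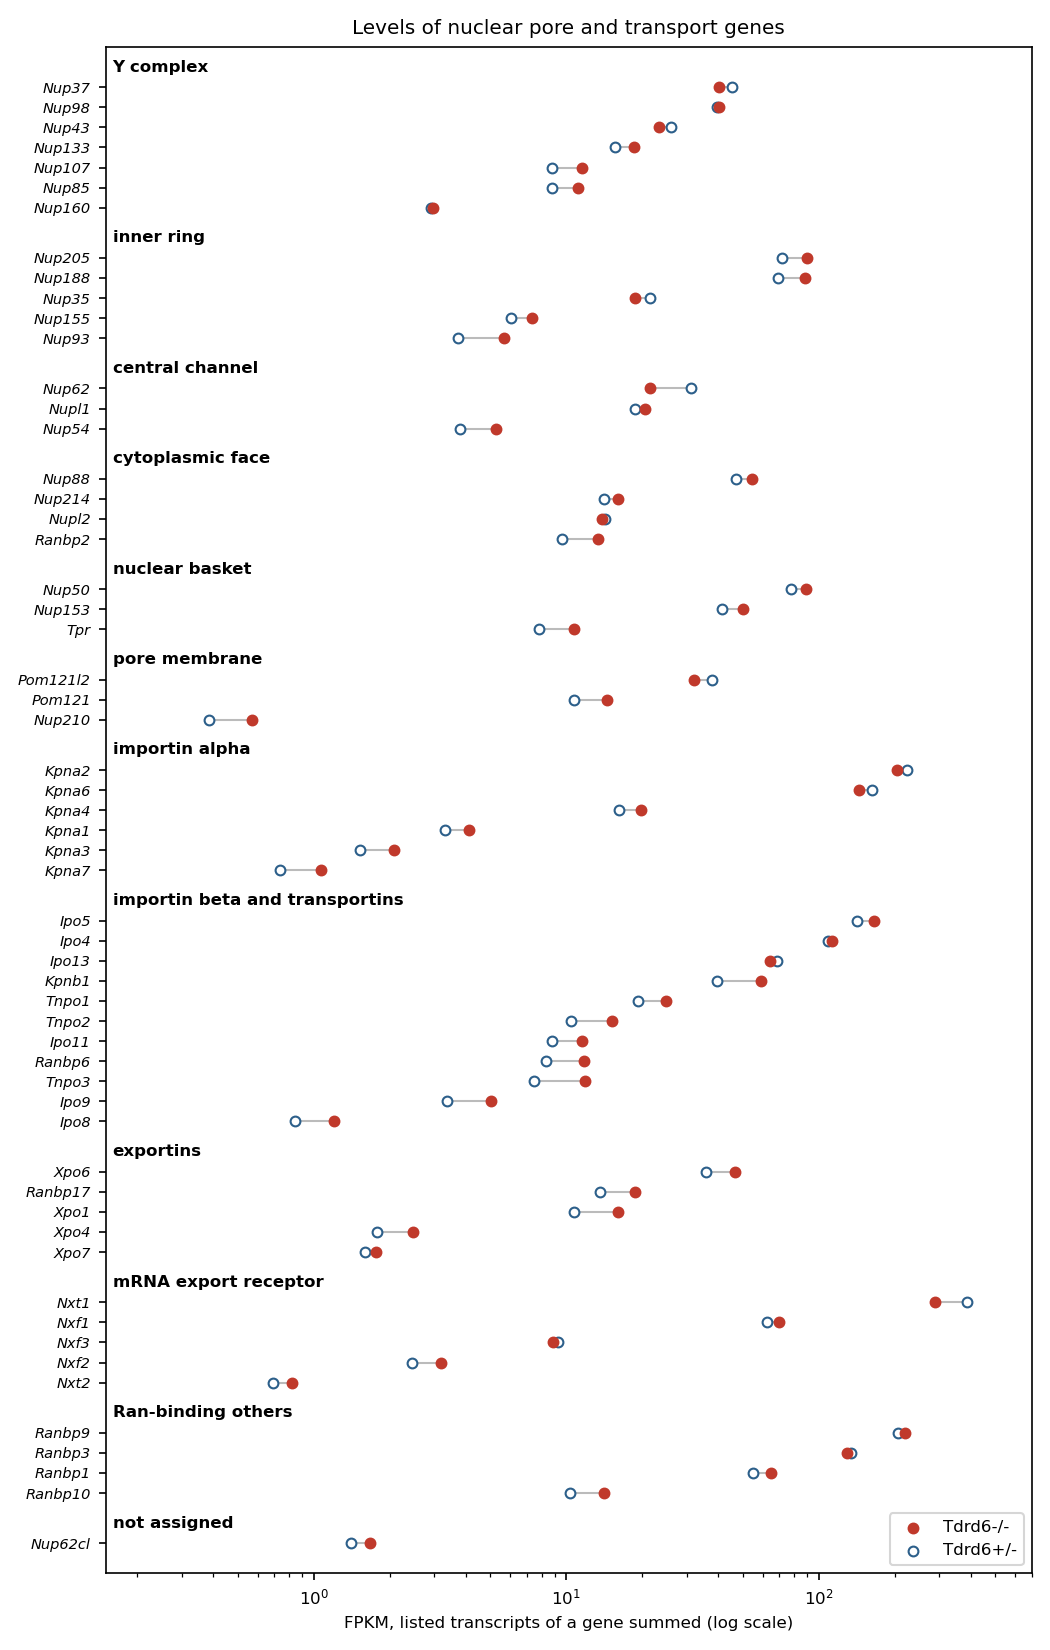
Summed FPKM of each of the 57 genes on a log axis, by role, with *Tdrd6*-/- as filled red points and *Tdrd6*+/- as open blue points (1 combined value per genotype, no error bar). *Nxt1* is the highest gene in both genotypes (290 FPKM in *Tdrd6*-/-, 388 FPKM in *Tdrd6*+/-) and *Nup210* the lowest (0.572 FPKM in *Tdrd6*-/- and 0.384 FPKM in *Tdrd6*+/-).

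The mRNAs of a pair of genes end at different annotated sites, which bears on the 3' UTR classes used below. The last 30 bases of the shorter and longer forms of *Nup50*, a basket protein that binds importin alpha, and of *Kpna6*, an importin alpha, are shown for that reason, read from the genome build NCBIM37 (mm9) in transcript sense with the poly(A) signal AATAAA in capitals where it occurs. *Nup50* lies on the plus strand (short form chr15:84770408-84770437, long form chr15:84773356-84773385) and *Kpna6* on the minus strand (medium form chr4:129324728-129324757, long form chr4:129321224-129321253).
Nup50 short: ttaaggccAATAAAtcctttcagtgtgtcg
Nup50 long: atccatgaaatgtgAATAAAtggaaagttg
Kpna6 medium: agtcccaaacaaagtgttcttgctctgacc
Kpna6 long: aaaAATAAAaacctgttgcaaagttctaaa

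Both *Nup50* ends and the long *Kpna6* end hold the signal, and the medium *Kpna6* end holds neither AATAAA nor ATTAAA in this window. Among members with an annotated 3' UTR, 46 of 86 had AATAAA in the last 30 bases of the sense strand (53.5%, against 49.8% of 18849 transcripts), 15 had ATTAAA without AATAAA (17.4%, against 12.4%), and 25 had neither (29.1%, against 37.8%). The short *Nup50* form (3' UTR of 159 nt) had 70.1 FPKM in *Tdrd6*-/- and 63.8 FPKM in *Tdrd6*+/- cells (log2 ratio 0.14), and the long form (3107 nt) had 18.7 FPKM in *Tdrd6*-/- and 14.1 FPKM in *Tdrd6*+/- (0.41). For *Kpna6*, the medium form (508 nt) had 128 FPKM in *Tdrd6*-/- and 152 FPKM in *Tdrd6*+/- (-0.24), and the long form (4012 nt) had 16.5 FPKM in *Tdrd6*-/- and 11.4 FPKM in *Tdrd6*+/- (0.53). The long form thus took 11.4% of *Kpna6* in *Tdrd6*-/- and 6.99% in *Tdrd6*+/-, and that of *Nup50* took 21.1% in *Tdrd6*-/- and 18.1% in *Tdrd6*+/-. In both genes the long form is the lesser one, and it had the higher ratio. Across members this was not general, as the longest 3' UTR had the highest ratio in 7 of 17 genes whose forms differ there.

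Within the pore, the inner ring and the nuclear basket held the most abundant scaffold and basket transcripts, and most of their main transcripts were higher in *Tdrd6*-/-. In the inner ring, which joins the membrane to the channel, the main *Nup205* transcript had 61.6 FPKM in *Tdrd6*-/- and 41.2 FPKM in *Tdrd6*+/- (0.58, just under the fold of 1.5) and *Nup188* 81.6 FPKM in *Tdrd6*-/- and 62.1 FPKM in *Tdrd6*+/- (0.39). *Nup93*, which binds both of them, had 5.65 FPKM in *Tdrd6*-/- and 3.72 FPKM in *Tdrd6*+/- cells (0.59), and *Nup155* 7.32 FPKM in *Tdrd6*-/- and 6.03 FPKM in *Tdrd6*+/- (0.27). *Nup35* was lower, at 18.8 FPKM in *Tdrd6*-/- and 21.5 FPKM in *Tdrd6*+/- (-0.19). The other *Nup188* and *Nup205* models had ratios between -0.24 and -0.10, so the median of the 8 inner ring transcripts was 0.09.

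The Y complex, the outer scaffold, was grouped with every *Nup98* transcript, and these were not separated by the protein they encode. This group had a median of 0.14 over 10 transcripts of 7 genes, with 6 transcripts higher in *Tdrd6*-/-. *Nup107* was at 11.6 FPKM in *Tdrd6*-/- and 8.82 FPKM in *Tdrd6*+/- (0.39), *Nup85* at 11.2 FPKM in *Tdrd6*-/- and 8.82 FPKM in *Tdrd6*+/- (0.33) and *Nup133* at 18.6 FPKM in *Tdrd6*-/- and 15.6 FPKM in *Tdrd6*+/- (0.25), whereas *Nup160* was alike at 2.98 FPKM in *Tdrd6*-/- and 2.91 FPKM in *Tdrd6*+/- (0.03). The small members *Nup37* (40.5 FPKM in *Tdrd6*-/- and 45.2 FPKM in *Tdrd6*+/- over its transcripts, -0.16) and *Nup43* (23.4 FPKM in *Tdrd6*-/- and 26.1 FPKM in *Tdrd6*+/-, -0.16) were lower. The summed level of the group, *Nup98* included, was 148 FPKM in *Tdrd6*-/- and 147 FPKM in *Tdrd6*+/- (1.01-fold). *Nup98*, whose locus encodes a mobile FG nucleoporin and the scaffold protein Nup96, summed to 40.2 FPKM in *Tdrd6*-/- and 39.6 FPKM in *Tdrd6*+/-, yet its transcripts parted: the medium form of 4051 nt had 11.2 FPKM in *Tdrd6*-/- and 15.5 FPKM in *Tdrd6*+/- (-0.47), and the form of 2650 nt had 26.8 FPKM in *Tdrd6*-/- and 21.5 FPKM in *Tdrd6*+/- (0.32).

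In the central channel, *Nup62*, the FG protein that gates diffusion and contacts transport receptors, was the member gene with the lowest ratio. It had 21.4 FPKM in *Tdrd6*-/- against 31.3 FPKM in *Tdrd6*+/- cells (log2 ratio -0.54; chromosome 7, 52071458 to 52086179, plus strand). Its partners were higher, *Nup54* with 5.27 FPKM in *Tdrd6*-/- and 3.81 FPKM in *Tdrd6*+/- (0.46) and *Nupl1* (Nup58) with 20.6 FPKM in *Tdrd6*-/- and 18.8 FPKM in *Tdrd6*+/- (0.13). *Nup62* made up 45.3% of the summed channel FPKM in *Tdrd6*-/- and 58.1% in *Tdrd6*+/- cells. The X-linked relative *Nup62cl*, whose role was not assigned, had 1.67 FPKM in *Tdrd6*-/- and 1.41 FPKM in *Tdrd6*+/- (0.23).

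On the cytoplasmic face, *Ranbp2* (Nup358), the filament protein that carries SUMO ligase activity and binds Ran, had 13.3 FPKM in *Tdrd6*-/- and 9.66 FPKM in *Tdrd6*+/- (0.46). *Nup88*, which anchors the filaments, led the group with a main transcript at 49.0 FPKM in *Tdrd6*-/- and 42.1 FPKM in *Tdrd6*+/- (0.22), and *Nupl2*, a docking site for mRNA export factors, was at 13.9 FPKM in *Tdrd6*-/- and 14.3 FPKM in *Tdrd6*+/- (-0.04). The full-length *Nup214* form of 6605 nt had 11.5 FPKM in *Tdrd6*-/- and 8.24 FPKM in *Tdrd6*+/- (0.47), while the 4942 nt form had 3.38 FPKM in *Tdrd6*-/- and 4.57 FPKM in *Tdrd6*+/- (-0.43) and a form of 3569 nt 1.15 FPKM in *Tdrd6*-/- and 1.36 FPKM in *Tdrd6*+/- (-0.23).

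In the nuclear basket, *Nup153* had 50.1 FPKM in *Tdrd6*-/- and 41.6 FPKM in *Tdrd6*+/- (0.27). *Tpr*, the filament of the basket, was present as 3 fragments of 575 to 1940 nt and not as a full-length model: they had 7.84, 2.50 and 0.422 FPKM in *Tdrd6*-/-, against 4.89, 1.77 and 1.17 FPKM in *Tdrd6*+/- (0.67, 0.48 and -1.29). The last is the only member at least 1.5-fold lower, and summed over the fragments *Tpr* had 10.8 FPKM in *Tdrd6*-/- and 7.84 FPKM in *Tdrd6*+/- (0.45). In the membrane, the anchor *Pom121* had 14.5 FPKM in *Tdrd6*-/- and 10.7 FPKM in *Tdrd6*+/- (0.43) and *Nup210* 0.572 FPKM in *Tdrd6*-/- and 0.384 FPKM in *Tdrd6*+/- (0.47), whereas *Pom121l2*, a *Pom121*-like gene, led the group with 32.0 FPKM in *Tdrd6*-/- and 37.9 FPKM in *Tdrd6*+/- (-0.24).

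Importin alpha proteins read the classical nuclear localization signal and bind importin beta. *Kpna2* and *Kpna6* were by far the most abundant and both were a little lower in *Tdrd6*-/-, and the other 4 genes were higher. *Kpna2* summed to 204 FPKM in *Tdrd6*-/- and 224 FPKM in *Tdrd6*+/- (-0.13), *Kpna6* to 144 FPKM in *Tdrd6*-/- and 163 FPKM in *Tdrd6*+/- (-0.17), and *Kpna2* was 54.3% of the family in *Tdrd6*-/- and 54.8% in *Tdrd6*+/-. *Kpna4* had 19.8 FPKM in *Tdrd6*-/- and 16.2 FPKM in *Tdrd6*+/- (0.29), *Kpna1* 4.14 FPKM in *Tdrd6*-/- and 3.33 FPKM in *Tdrd6*+/- (0.31), *Kpna3* 2.08 FPKM in *Tdrd6*-/- and 1.52 FPKM in *Tdrd6*+/- (0.43) and *Kpna7*, known from oocytes and early embryos, 1.07 FPKM in *Tdrd6*-/- and 0.736 FPKM in *Tdrd6*+/- (0.49). These 4 genes together summed to 27.1 FPKM in *Tdrd6*-/- and 21.8 FPKM in *Tdrd6*+/-. The largest ratio of all members belonged to a 541 nt *Kpna2* fragment at 1.26 FPKM in *Tdrd6*-/- and 0.499 FPKM in *Tdrd6*+/- (1.19), a level low enough that adding 1 FPKM instead gave 0.59.

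Importin beta relatives and transportins had the highest role median, 0.46 over 18 transcripts, 15 of them higher in *Tdrd6*-/-. *Kpnb1*, importin beta itself and the partner of all importin alphas, had 59.1 FPKM in *Tdrd6*-/- and 39.5 FPKM in *Tdrd6*+/- cells (0.58; chromosome 11, 97021028 to 97049195, minus strand), just under the fold of 1.5. *Tnpo3*, the carrier of SR splicing proteins, had 11.8 FPKM in *Tdrd6*-/- and 7.45 FPKM in *Tdrd6*+/- (0.66). With the transcripts of a gene summed, it and *Nup93* were the only members past the fold, and *Xpo1* lay just under it. *Tnpo2* (15.2 FPKM in *Tdrd6*-/- and 10.4 FPKM in *Tdrd6*+/-, 0.54) and *Tnpo1* (24.9 FPKM in *Tdrd6*-/- and 19.3 FPKM in *Tdrd6*+/-, 0.37), which carry hnRNP proteins, were higher, as were *Ipo9* (5.02 FPKM in *Tdrd6*-/- and 3.38 FPKM in *Tdrd6*+/-, 0.56), an importer of histones, *Ranbp6* (11.8 FPKM in *Tdrd6*-/- and 8.34 FPKM in *Tdrd6*+/-, 0.49) and *Ipo8* (1.21 FPKM in *Tdrd6*-/- and 0.845 FPKM in *Tdrd6*+/-, 0.47). A short *Ipo11* form had 1.58 FPKM in *Tdrd6*-/- and 0.948 FPKM in *Tdrd6*+/- (0.68), while the gene summed to 11.6 FPKM in *Tdrd6*-/- and 8.81 FPKM in *Tdrd6*+/- (0.39).

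The most abundant genes of the family, *Ipo5*, *Ipo4* and *Ipo13*, had its ratios closest to 0. *Kpnb1*, next in level with 59.1 FPKM in *Tdrd6*-/- and 39.5 FPKM in *Tdrd6*+/-, was at 0.58. *Ipo5*, which imports ribosomal proteins and histones, had 166 FPKM in *Tdrd6*-/- and 141 FPKM in *Tdrd6*+/- (0.23), *Ipo4* 113 FPKM in *Tdrd6*-/- and 109 FPKM in *Tdrd6*+/- (0.05), and *Ipo13*, an importer that also exports cargo, 64.1 FPKM in *Tdrd6*-/- and 68.2 FPKM in *Tdrd6*+/- (-0.09). The ratio of *Ipo5* to *Kpnb1* was 2.81 in *Tdrd6*-/- and 3.58 in *Tdrd6*+/- cells, so the spread between the 2 importers was smaller in *Tdrd6*-/-. The family summed to 483 FPKM in *Tdrd6*-/- and 417 FPKM in *Tdrd6*+/- (1.16-fold).

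Exportins were higher in *Tdrd6*-/- in 8 of 9 transcripts, with a median of 0.45. Of the 9, 4 were past the fold of 1.5 (44.4%, against 10.4% of all transcripts). Among them were forms of *Ranbp17* and *Xpo7* that differ by 1 and 3 nt from the other form of the gene. No exportin gene was past the fold when its transcripts were summed. *Xpo1* lay just under it, with 16.1 FPKM in *Tdrd6*-/- and 10.7 FPKM in *Tdrd6*+/- (1.4997-fold), a call that depends on the added 0.1 FPKM. *Xpo1* (CRM1), which exports proteins with leucine-rich signals, had a short form at 13.0 FPKM in *Tdrd6*-/- and 8.22 FPKM in *Tdrd6*+/- (0.65; chromosome 11, 23156055 to 23196233, plus strand) and a medium form at 3.12 FPKM in *Tdrd6*-/- and 2.49 FPKM in *Tdrd6*+/- (0.31). *Xpo6*, the exporter of actin, was the most abundant and summed to 46.5 FPKM in *Tdrd6*-/- and 35.7 FPKM in *Tdrd6*+/- (0.38), with its shorter transcript at 17.5 FPKM in *Tdrd6*-/- and 11.5 FPKM in *Tdrd6*+/- (0.59). *Ranbp17*, a relative of *Xpo7* with high testis expression, summed to 18.7 FPKM in *Tdrd6*-/- and 13.7 FPKM in *Tdrd6*+/- (0.45), and *Xpo4*, which exports the translation factor eIF5A, was at 2.48 FPKM in *Tdrd6*-/- and 1.78 FPKM in *Tdrd6*+/- (0.45). *Xpo7* had 1.77 FPKM in *Tdrd6*-/- and 1.60 FPKM in *Tdrd6*+/- (0.14), with a minor form at 0.532 FPKM in *Tdrd6*-/- and 0.283 FPKM in *Tdrd6*+/- (0.72).

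The abundant subunits of the mRNA export receptor had ratios of opposite sign. *Nxt1*, the small subunit that pairs with NXF1, was the most abundant member gene in both genotypes and lower in *Tdrd6*-/-: its 2 transcripts had 186 and 104 FPKM in *Tdrd6*-/-, against 248 and 140 FPKM in *Tdrd6*+/- (-0.42 and -0.43; chromosome 2, 148498337 to 148501763, plus strand). *Nxf1*, the receptor that carries mRNA through the pore, was at 69.4 FPKM in *Tdrd6*-/- and 62.2 FPKM in *Tdrd6*+/- (0.16). *Nxt1* was 4.17 times *Nxf1* in *Tdrd6*-/- and 6.23 times in *Tdrd6*+/- cells. *Nxf2*, an X-linked paralogue active in mouse testis, summed to 3.19 FPKM in *Tdrd6*-/- and 2.46 FPKM in *Tdrd6*+/- (0.36), *Nxf3* had 8.85 FPKM in *Tdrd6*-/- and 9.28 FPKM in *Tdrd6*+/- (-0.07) and *Nxt2* 0.822 FPKM in *Tdrd6*-/- and 0.692 FPKM in *Tdrd6*+/- (0.22). The summed receptor genes stood at 372 FPKM in *Tdrd6*-/- and 462 FPKM in *Tdrd6*+/- (0.804-fold).

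Among other Ran-binding members, *Ranbp3*, a cofactor of CRM1 export, had 129 FPKM in *Tdrd6*-/- and 134 FPKM in *Tdrd6*+/- (-0.06), so *Xpo1* was 0.125 of *Ranbp3* in *Tdrd6*-/- and 0.0797 in *Tdrd6*+/-. *Ranbp1*, which helps Ran-GTP hydrolysis, had a main form at 61.8 FPKM in *Tdrd6*-/- and 50.5 FPKM in *Tdrd6*+/- (0.29) and a minor form at 3.22 FPKM in *Tdrd6*-/- and 4.46 FPKM in *Tdrd6*+/- (-0.46). *Ranbp9*, a subunit of a ubiquitin ligase and not a carrier, was the second most abundant member gene in *Tdrd6*-/- with 219 FPKM, against 206 FPKM in *Tdrd6*+/- (0.09), and its relative *Ranbp10* had 14.2 FPKM in *Tdrd6*-/- and 10.4 FPKM in *Tdrd6*+/- (0.44).

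Transport genes outside the naming rule had a median near 0. Over 35 of 36 listed genes, with the most abundant transcript of each, the median log2 ratio was -0.01, with 16 higher (45.7%) and 19 lower. All genes taken in that way had a median of 0.0004 with 50.1% higher, and the members 0.29 with 44 of 57 higher (77.2%). The listed genes were thus near the whole table. They are also shorter than the members, with a median of 2429 nt against 3471 nt, and the part of length in the contrast with the members was not tested. The engine of the Ran cycle was lower in *Tdrd6*-/-: *Ran* had 232 FPKM in *Tdrd6*-/- and 302 FPKM in *Tdrd6*+/- (-0.38), its nucleotide exchange factor *Rcc1* 19.8 FPKM in *Tdrd6*-/- and 34.9 FPKM in *Tdrd6*+/- (-0.82) and its GTPase activator *Rangap1* 15.1 FPKM in *Tdrd6*-/- and 21.2 FPKM in *Tdrd6*+/- (-0.49). The exportin for importin alpha, *Cse1l*, had 15.0 FPKM in *Tdrd6*-/- and 11.5 FPKM in *Tdrd6*+/- (0.38) and the tRNA exportin *Xpot* 12.5 FPKM in *Tdrd6*-/- and 10.0 FPKM in *Tdrd6*+/- (0.31). Of the Y complex subunits with other names, *Ahctf1* (ELYS) had 39.4 FPKM in *Tdrd6*-/- and 28.3 FPKM in *Tdrd6*+/- (0.47) and *Sec13* 108 FPKM in *Tdrd6*-/- and 131 FPKM in *Tdrd6*+/- (-0.28). The membrane nucleoporin NDC1, listed under its older symbol *Tmem48*, had 3.77 FPKM in *Tdrd6*-/- and 3.86 FPKM in *Tdrd6*+/- (-0.03).

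Where a gene had several transcripts, they often disagreed. There were 24 such genes with 54 transcripts, and in 12 the transcripts had ratios on both sides of 0. In 22 of the 24 the same transcript was the most abundant in both genotypes, the exceptions being *Nxf2* and *Ranbp9*. *Ranbp9* had 106 FPKM of the form of 2527 nt and 88.5 FPKM of the form of 2851 nt in *Tdrd6*-/-, against 86.6 and 97.0 FPKM in *Tdrd6*+/-. In 5 genes the transcripts compared differ by fewer than 25 nt, among them *Ranbp17* (1 nt; 0.87 and 0.28) and *Xpo7* (3 nt; 0.72 and -0.08), and FPKM values split between such forms are uncertain. Of 17 genes whose forms differ in 3' UTR length, the longest 3' UTR had the highest ratio in 7. Some of these differences are slight, as in *Ranbp17* (1607 and 1608 nt) and *Kpna2* (258 and 264 nt). In *Nup205*, forms with ratios of 0.58 and -0.24 share the longest 3' UTR (177 nt). The same share over all genes was not computed, so the count is only a description. In *Xpo1* the 126 nt form was at 0.65 and the 1490 nt form at 0.31.

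Besides *Tpr*, *Nup214* and *Nup98*, the nucleoporins *Nup37*, *Nup188* and *Nup205* had forms on both sides of 0. The main *Nup37* form had 37.7 FPKM in *Tdrd6*-/- and 43.2 FPKM in *Tdrd6*+/- (-0.20), and a form 18 nt longer had 2.82 FPKM in *Tdrd6*-/- and 2.01 FPKM in *Tdrd6*+/- (0.47). The 534 nt *Nup188* fragment had 6.33 FPKM in *Tdrd6*-/- and 6.91 FPKM in *Tdrd6*+/- (-0.12). The 1120 nt *Nup205* form had 26.9 FPKM in *Tdrd6*-/- and 28.7 FPKM in *Tdrd6*+/- (-0.10) and the 6381 nt form 1.52 FPKM in *Tdrd6*-/- and 1.82 FPKM in *Tdrd6*+/- (-0.24), against the higher ratio of the main form. The minor *Nup88* form, with 5.38 FPKM in *Tdrd6*-/- and 4.80 FPKM in *Tdrd6*+/- (0.16), lay close to the main one, and the 3961 nt *Nup98* form had 2.25 FPKM in *Tdrd6*-/- and 2.60 FPKM in *Tdrd6*+/- (-0.20).

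Among importins, a main form set the level of each gene except *Ipo9*, whose forms were at like levels. The main *Kpna2* form had 203 FPKM in *Tdrd6*-/- and 223 FPKM in *Tdrd6*+/- (-0.14). The main *Ipo11* form had 8.55 FPKM in *Tdrd6*-/- and 6.23 FPKM in *Tdrd6*+/- (0.45) and the 1621 nt form 1.44 FPKM in *Tdrd6*-/- and 1.63 FPKM in *Tdrd6*+/- (-0.17). *Tnpo2* was higher in both forms, the main one with 14.5 FPKM in *Tdrd6*-/- and 10.1 FPKM in *Tdrd6*+/- (0.52) and the minor one with 0.710 FPKM in *Tdrd6*-/- and 0.313 FPKM in *Tdrd6*+/- (0.97), and so was *Tnpo1*, with 21.6 FPKM in *Tdrd6*-/- and 16.8 FPKM in *Tdrd6*+/- (0.37) for the main form and 3.26 FPKM in *Tdrd6*-/- and 2.52 FPKM in *Tdrd6*+/- (0.36) for the other. Both *Ipo9* forms were likewise higher, the 6247 nt form with 2.42 FPKM in *Tdrd6*-/- and 1.64 FPKM in *Tdrd6*+/- (0.54) and an 800 nt fragment with 2.61 FPKM in *Tdrd6*-/- and 1.75 FPKM in *Tdrd6*+/- (0.55). *Ipo5* rested on a single form, with 165 FPKM in *Tdrd6*-/- and 141 FPKM in *Tdrd6*+/- (0.23), beside a minor one with 0.641 FPKM in *Tdrd6*-/- and 0.594 FPKM in *Tdrd6*+/- (0.09). *Ipo13* forms were near 0, the main one with 62.5 FPKM in *Tdrd6*-/- and 66.6 FPKM in *Tdrd6*+/- (-0.09) and the minor one with 1.63 FPKM in *Tdrd6*-/- and 1.64 FPKM in *Tdrd6*+/- (-0.01).

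For exportins the main form had the smaller ratio except in *Xpo1*. The main *Ranbp17* form had 12.6 FPKM in *Tdrd6*-/- and 10.4 FPKM in *Tdrd6*+/- (0.28) and the minor one 6.03 FPKM in *Tdrd6*-/- and 3.24 FPKM in *Tdrd6*+/- (0.87). The main *Xpo6* form had 29.0 FPKM in *Tdrd6*-/- and 24.1 FPKM in *Tdrd6*+/- (0.26), and the main *Xpo7* form had 1.24 FPKM in *Tdrd6*-/- and 1.32 FPKM in *Tdrd6*+/- (-0.08). In *Nxf2* the form of 2393 nt had 1.65 FPKM in *Tdrd6*-/- and 1.07 FPKM in *Tdrd6*+/- (0.58) and that of 2316 nt had 1.54 FPKM in *Tdrd6*-/- and 1.39 FPKM in *Tdrd6*+/- (0.14), so the more abundant form differed between the genotypes. The remaining *Ranbp9* form of 3064 nt had 24.2 FPKM in *Tdrd6*-/- and 22.3 FPKM in *Tdrd6*+/- (0.12).

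**Figure D3:**
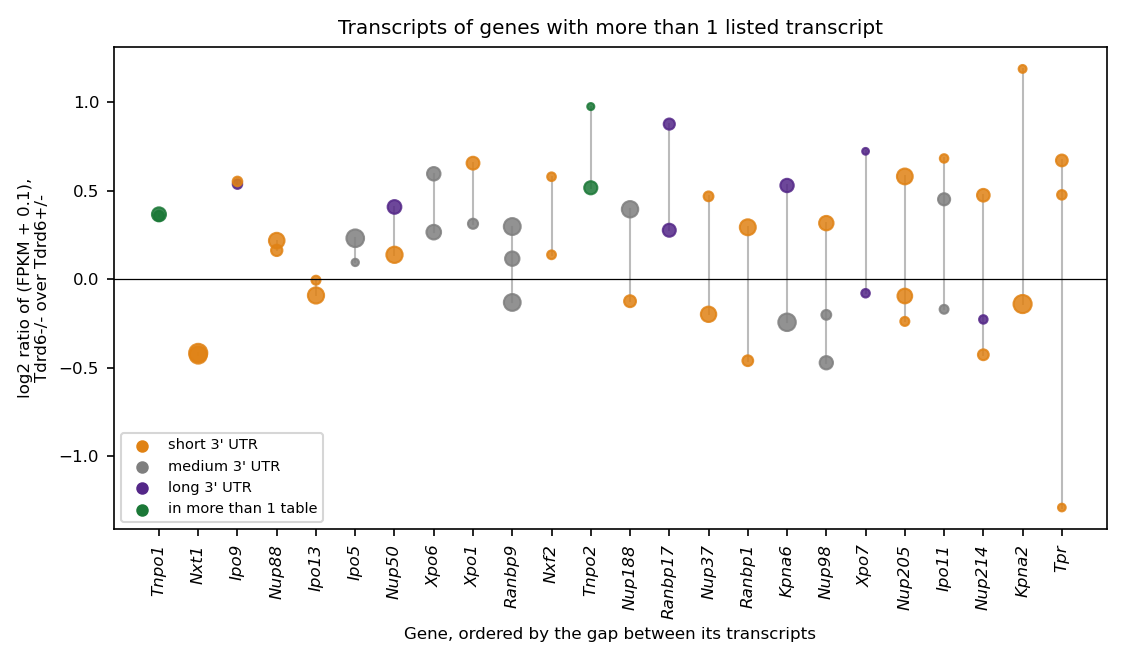
Log2 ratios of the transcripts of the 24 genes that have several. Genes lie along the x axis, the log2 ratio of *Tdrd6*-/- over *Tdrd6*+/- is on the y axis, and dot size grows with mean FPKM. *Tpr* spans 1.96 log2 units and *Tnpo1* 0.01 between their lowest and highest transcript.

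Members' ratios also varied with transcript length, as those of all transcripts did, and the carriers are long. The median total length was 3569 nt for members and 2341 nt for all transcripts, and 29.9% of members exceeded 5000 nt, against 11.4% of all. Across the 26 members over 5000 nt the median was 0.41, against 0.32 for all transcripts of that length. Of these members 24 were higher in *Tdrd6*-/- (92.3%), against 80.0% of all transcripts of that length. Across the 14 members of 1000 to 2000 nt the median was -0.13, against -0.15. The 9 members of 3000 to 4000 nt lay below the table, with a median of 0.05 against 0.15. The medians of the other bins were 0.18 against -0.30 (up to 1000 nt, 6 members), 0.16 against 0.04 (2000 to 3000 nt, 20) and 0.44 against 0.22 (4000 to 5000 nt, 12). Set against the median of all transcripts in the same length bin, 52 members were above and 35 below, by a median of 0.12 log2 units, with 23 above and 12 below for importins and exportins (0.15) and 21 above and 16 below for nucleoporins (0.09). The medians of these groups were 0.45 and 0.22 before that step, so they lay closer together within length bins. Spearman's rho between ratio and total length was 0.30 over the 87 members and 0.40 over 18860 transcripts, and between ratio and mean FPKM -0.30 and -0.17. The transcripts share libraries and, within a gene, reads, so these are descriptions. How far length accounts for the members' shift was not tested.

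**Figure D4:**
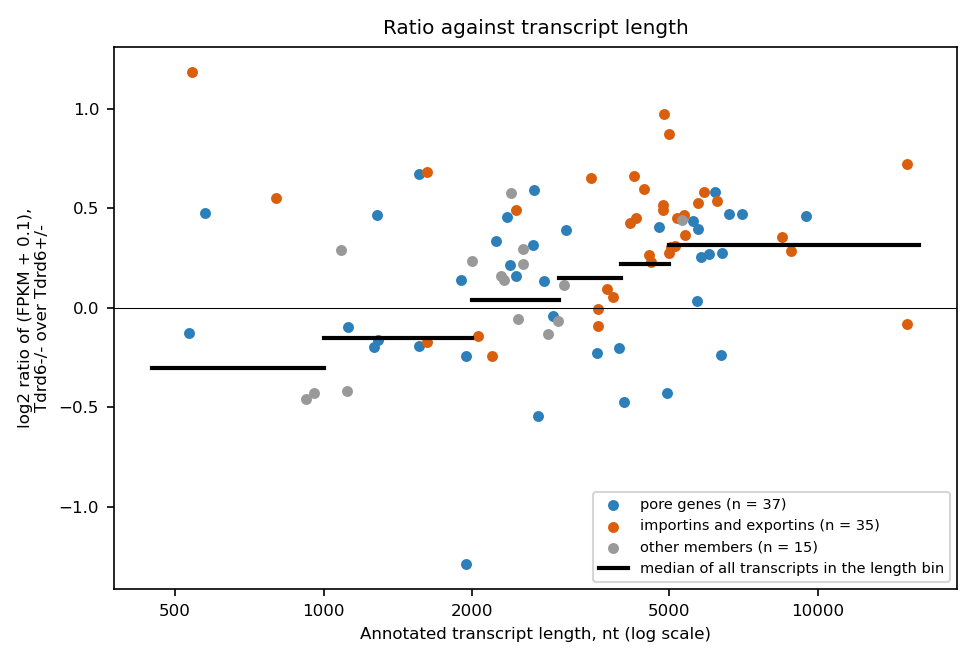
Log2 ratio (y axis) against total transcript length in nt on a log axis (x axis) of the members, coloured as nucleoporins, importins and exportins, and others; black lines are medians of all transcripts in each length bin. The members over 5000 nt have a median of 0.41, against 0.32 for all transcripts of that length.

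By the 3' UTR classes of the tables, members had a median of 0.16 in the short class (up to 350 nt; 35 transcripts), 0.12 in the medium class (26), 0.42 in the long class (over 1500 nt; 20) and 0.50 for 6 listed in more than 1 table. All transcripts had -0.15, 0.03, 0.19 and 0.07 in the same classes. The members lay above the table in each class, and *Nxt1*, *Nup62* and the *Ipo13* forms, short or medium, were among those below 0. On the X chromosome, which is silenced in meiosis and only partly reactivated in spermatids, the 5 transcripts of 4 member genes reached at most 8.85 FPKM in *Tdrd6*-/- and 9.28 FPKM in *Tdrd6*+/-, and 4 of the 5 were higher in *Tdrd6*-/-.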

How the data were processed

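Per the labels, poly-dT selected RNA from CD4-enriched cells of 8 mice went through a directional library kit, whereas the methods describe ribosomal RNA depletion. Reads were aligned to mm9 (Bowtie2 2.10 and TopHat2 2.0.9 in the submitters' processing notes) and transcripts quantified with Cuffdiff of Cufflinks 2.1.1. The authors deposited 3 tables by 3' UTR length with 1 FPKM value per genotype, made from 4 libraries. The tables also hold the authors' log2 fold changes, p-values and q-values, which were not used. Depth per library was not used here.

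Members were found by name, each transcript counted once, and their roles assigned by hand. The members and lists were chosen with earlier results of these data known. Log2 ratios used a pseudocount of 0.1 FPKM, with no filter. Named were members past a fold of 1.5 with at least 1 FPKM, the most abundant of each role, the 5 highest and 5 lowest ratios, and genes with several transcripts. Other genes were given to complete each role. Lengths, coordinates and ends came from GENCODE M1 (NCBIM37), an older annotation than the study's, where all 87 members matched. Alternatives changed the pseudocount, the filter, the fold, the centring and the choice of transcript. Python 3.11.15, numpy 2.4.6, pandas 2.3.3, SciPy 1.17.1 and matplotlib 3.10.9 were used, and the ratio and count steps were tested on simulated data.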

Additional observations from a re-analysis of the deposited data

How the results depend on the processing

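No paired analysis was possible because each genotype has 1 combined value, and for the same reason no replicate could be left out. The median of all members moved by less than 0.1 log2 units under every alternative run (range 0.25 to 0.29). A pseudocount of 1 left 5 members at least 1.5-fold higher (5.75%, against 4.54% of all transcripts), with medians of 0.18 for the pore membrane, 0.26 for importin alpha and 0.26 for exportins. With a mean of at least 1 FPKM, none was 1.5-fold lower (8.78% of all), and the pore membrane had 0.10 and the mRNA export receptor 0.035. With at least 5 FPKM, 4 were higher (7.55%, against 4.45%) and 0 lower (against 8.07%), and medians were 0.25 (Y complex), -0.21 (central channel, 2 transcripts), 0.10 (pore membrane), 0.073 (importin alpha) and -0.24 (mRNA export receptor). With 1 transcript per gene, 4 were higher (7.02%, against 6.22%) and 0 lower (against 8.05%), with 0.25 (Y complex), 0.39 (inner ring), 0.34 (cytoplasmic face), 0.28 (exportins) and 0.29 (Ran-binding). At thresholds of 25% higher and 20% lower, 37 were higher and 7 lower, and at a fold of 2, 1 was higher. With the transcripts of a gene summed, an alternative chosen after seeing the data, 2 were higher (3.51%, against 5.22%) and 0 lower (against 7.34%), with 0.035 (Y complex) and 0.33 (inner ring). The other 95 values for the set and its roles moved less. Among values for single transcripts 15 moved by over 0.1, all under another pseudocount and with a mean under 5 FPKM, and 165 did not. The cause of these moves was not tested, except that filters leave fewer transcripts. The higher counts were thus near or below those of all transcripts with another pseudocount, 1 transcript per gene or summed genes. No value per library was used, nor were the authors' p-values, so the ratios here are not set against the spread between animals.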
